A study of Mus musculus with 18 samples.

Results

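The 10 genes described here encode LIM domain proteins of muscle: the FHL genes Fhl1, Fhl2 and Fhl3, the cysteine- and glycine-rich protein genes Csrp1, Csrp2 and Csrp3, and the PDZ-LIM genes Pdlim3, Pdlim5, Pdlim7 and Ldb3. They were chosen by symbol, as named members of these 3 families, from the 24514 genes of a deposited count table. The rule itself uses no measured value, but the members were chosen with earlier results of these data known. All 10 passed the filter on low counts, as did 13802 genes (56.3%) in all. Pdlim3 and Csrp3 were at 0 at day 0 and passed through the later groups, and Ldb3 was near 0 at day 0. Counts of rising members that include these genes are descriptions of the genes that passed.

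RNA came from the iMGT-Myh6-eGFP-MEF line, mouse embryonic fibroblasts in which doxycycline turns on Mef2c, Gata4 and Tbx5 and a cardiac Myh6 reporter drives green fluorescent protein. All 6 groups carry these transgenes, so that every group, day 0 included, is of the same engineered line and differs in siRNA and in days of doxycycline. Cells were seeded at 1000 per well, each sample pooled 40 wells, and siRNA to Chst7 (siChst7) or a control (siControl) was given a day before day 0. Groups of 3 libraries were taken at day 0 without doxycycline and after 1 and 3 days of doxycycline at 1 µg/mL. Chst7 encodes a sulfotransferase that modifies chondroitin chains in the Golgi. The 3 samples of each group are labelled as biological replicates, with neither age nor strain given. Counts from bulk samples cannot tell fewer cells that express a gene from less RNA per cell, and the delivered factors cannot be told apart from the cells' own copies.

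A LIM domain is a pair of zinc fingers that binds other proteins rather than DNA. The proteins of these families sit on actin filaments and, in striated muscle, at the Z-disc, where thin filaments are anchored by alpha-actinin. The FHL proteins also enter the nucleus as cofactors of transcription, the CSRP proteins cross-link or accompany alpha-actinin and actin, and the PDZ-LIM proteins pair a PDZ domain that binds alpha-actinin with LIM domains that bind kinases and other partners. Several genes of the wider actin cytoskeleton are targets of serum response factor (SRF), which binds the CArG box and is driven by actin-sensing MRTF coactivators, and cardiac muscle genes are bound by MEF2, GATA and T-box factors, the classes to which the delivered factors belong.

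Promoter sequence is shown for 4 members: the 3 whose windows held a CArG box, and Pdlim3, which held a T-box half-site. Csrp3 also held a T-box half-site and is not shown. These letters were searched because they are the binding words of SRF and of the delivered factors. The sequences are the 250 bases before a transcript start, 5′ to 3′ on the gene's strand, from RefSeq on GRCm38.p6, and capitals mark matches to the CArG box, the MEF2 site, the GATA words AGATAA and TGATAA and the T-box half-site AGGTGT on either strand.
Fhl1, chrX:56779433-56779682, plus strand: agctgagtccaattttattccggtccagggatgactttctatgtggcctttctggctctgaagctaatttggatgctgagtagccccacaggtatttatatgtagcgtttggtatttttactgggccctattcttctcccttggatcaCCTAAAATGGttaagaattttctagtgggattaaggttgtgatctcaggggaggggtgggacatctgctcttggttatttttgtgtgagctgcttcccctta
Fhl2, first start, chr1:43163962-43164211, minus strand: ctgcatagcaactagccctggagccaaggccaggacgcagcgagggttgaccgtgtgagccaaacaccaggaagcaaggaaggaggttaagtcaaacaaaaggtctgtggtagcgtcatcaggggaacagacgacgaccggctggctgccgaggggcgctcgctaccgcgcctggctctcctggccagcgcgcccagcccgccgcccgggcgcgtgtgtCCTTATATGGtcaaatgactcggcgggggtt
Fhl2, second start, chr1:43196762-43197011, minus strand: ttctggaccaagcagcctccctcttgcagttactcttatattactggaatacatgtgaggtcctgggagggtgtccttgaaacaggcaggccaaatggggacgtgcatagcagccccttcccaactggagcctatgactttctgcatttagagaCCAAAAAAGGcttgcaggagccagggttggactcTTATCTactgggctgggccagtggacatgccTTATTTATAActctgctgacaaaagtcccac
Ldb3, chr14:34588682-34588931, minus strand: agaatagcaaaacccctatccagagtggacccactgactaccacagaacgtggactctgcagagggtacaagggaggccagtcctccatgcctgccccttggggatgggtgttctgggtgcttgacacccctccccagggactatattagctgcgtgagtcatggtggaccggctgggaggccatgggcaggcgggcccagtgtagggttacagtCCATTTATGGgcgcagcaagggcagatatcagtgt
Pdlim3, chr8:45885237-45885486, plus strand: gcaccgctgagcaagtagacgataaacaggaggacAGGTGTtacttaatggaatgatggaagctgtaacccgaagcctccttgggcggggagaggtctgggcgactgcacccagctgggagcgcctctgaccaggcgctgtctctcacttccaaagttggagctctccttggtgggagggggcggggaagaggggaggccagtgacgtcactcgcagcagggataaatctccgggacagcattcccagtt
Of the 10 members 9 had a window, 15 windows in all, and Csrp2 had none. Shares below are of windows of 300 bases, from 250 before a start to 50 after it. A CArG box was in 1.63% of all 32851 windows and in 5 of the 15 windows of the members, at 3 genes. In Fhl1 it lay from -102 to -93 (CCTAAAATGG), counted from the start, in Fhl2 from -31 to -22 (CCTTATATGG) at the first start and from -96 to -87 (CCAAAAAAGG) at the second. In Ldb3 1 site (CCATTTATGG) fell in 2 overlapping windows, at -35 to -26 of the start shown and at -109 to -100 of the other. The MEF2 site (TTATTTATAA) was in 3.19% of all windows and, among the members, only at the second start of Fhl2, from -31 to -22, where AGATAA (11.2% of all windows) also lay, read on the other strand. TGATAA was in 9.05% of all windows and in 1 of the members' windows, at Fhl1 after the start and outside the bases shown. AGGTGT was in 13.7% of all windows and in 2 of the members', at Pdlim3 from -215 to -210 and at 1 start of Csrp3 from -164 to -159, and in both it overlapped the E-box word CANNTG, which 72.3% of all windows held. The CArG box was not found in the windows of Fhl3, Csrp1, Csrp3, Pdlim3, Pdlim5 or Pdlim7. A match describes letters and not binding, and counts per gene do not say which start was used.

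The siRNA target was low in every siChst7 library. Chst7 stood at 18.6 to 19.7 CPM (counts relative to the TMM-scaled library size) in siControl and 0.238 to 0.611 in siChst7 at day 0, at 35.3 to 40.4 against 0.581 to 0.950 at day 1, and at 23.8 to 25.9 against 1.64 to 2.96 at day 3. The mean in siChst7 was 2.29%, 2.01% and 8.59% of siControl at days 0, 1 and 3. The libraries held 30590742 to 50021142 counts. The day 3 siChst7 libraries stood apart: ribosomal Rn45s took 1.96% of replicate 1 against 0.131% to 0.654% elsewhere, replicate 2 differed most from its fellows, and log2 ratios to siControl fell with gene length (rank correlation -0.33 to -0.26 over genes). At day 0 siChst7 replicate 3 stood apart to a lesser degree, at a chi-square over its degrees of freedom of 14.8 and 14.5 against its fellows, where the other pair had 3.61, and a rank correlation with gene length of 0.21. Summed cardiomyocyte markers (8 genes) ran from 11.7 to 13.4 CPM at day 0, 122 to 124 at day 1 and 1059 to 1140 at day 3 in siControl, and 23.0 to 23.7, 121 to 150 and 1244 to 1603 in siChst7. Of the 8 cardiomyocyte markers 1 was higher and 1 lower in siChst7 at day 0 (edgeR, 13.9% and 13.5% of all genes), with a median log2 fold change of -0.03. At day 1, 1 was higher and 1 lower (8.86% and 8.72%), with a median of 0.34. At day 3, 6 were higher and 0 lower (23.1% and 21.6%), with a median of 0.62. Fibroblast markers (10 genes) summed to 6921 CPM or more in every library, with Thy1 at 0 in siChst7 at day 0. The sum does not speak for each marker. Of the 8 tested, 6 were lower and 2 higher from day 0 to day 1 in siControl (edgeR, 30.8% and 29.5% of all genes), with a median of -0.72. Endothelial markers summed to at most 4.07 CPM and epithelial markers to at most 2.72, and macrophage markers to at most 29.2 CPM, with Adgre1 at 0 in 5 of the 6 groups. Skeletal muscle markers summed to 82.5 to 108 CPM at day 3 and to at most 25.6 before it, with Myod1 at 0 in siChst7 at every day and in siControl at day 0. The part of these markers in the results was not tested.

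**Figure D1:**
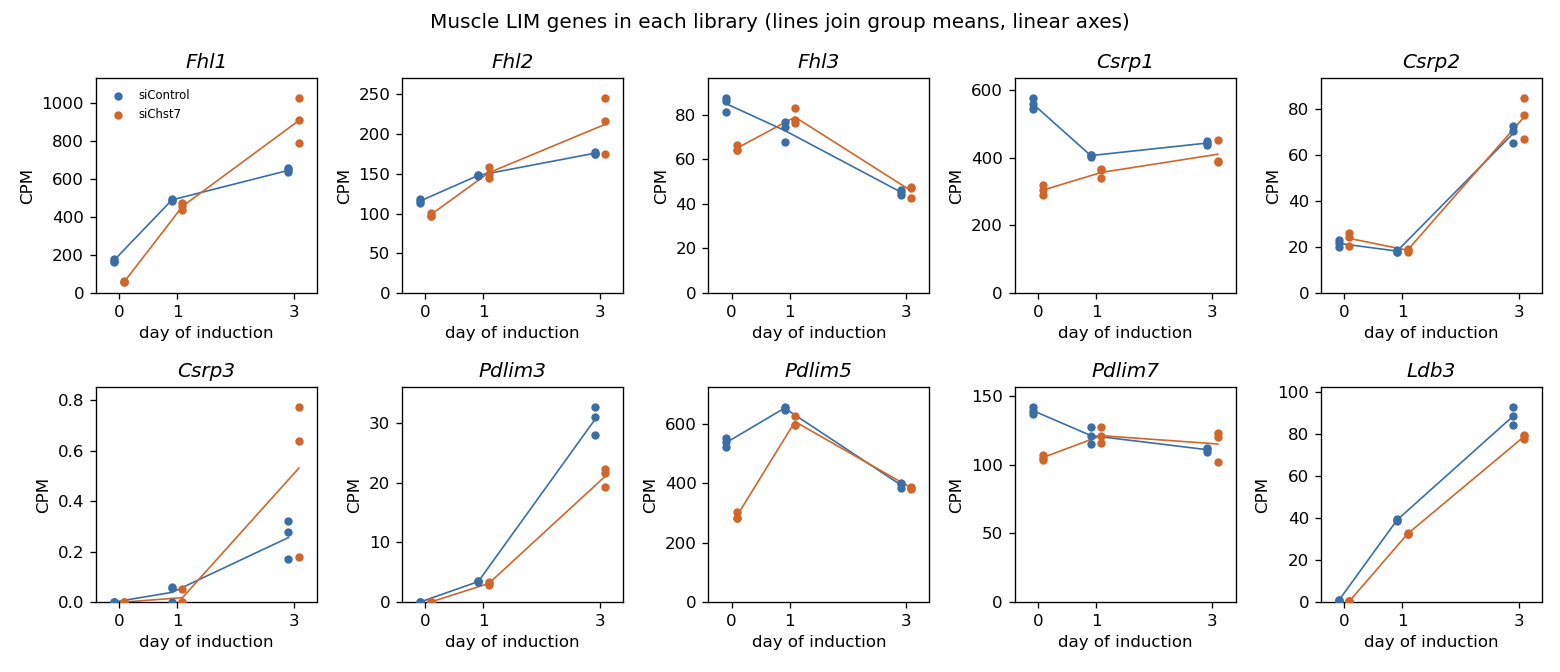
Level of each muscle LIM gene (CPM, linear axis from 0) in each of the 18 libraries against day of induction; points are libraries, lines join group means, blue is siControl and orange siChst7. Fhl1, Csrp1, Pdlim5 and Pdlim7 start lower in siChst7 at day 0 and lie close to siControl by day 1, and Ldb3 and Pdlim3 climb from near 0 in both.

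Per kilobase of gene length, the scale on which genes can be set beside each other, Csrp1 was the most abundant member in siControl at day 0, with 317 ± 9.30 CPM per kb (SD, n = 3). Pdlim5 (78.8 ± 2.28), Fhl2 (68.9 ± 1.56), Fhl1 (57.6 ± 2.52), Fhl3 (50.4 ± 1.98) and Pdlim7 (46.7 ± 0.82) followed, and Csrp2 stood at 24.3 ± 1.54. Ldb3 was at 0.14 ± 0.02 CPM per kb, and Pdlim3 and Csrp3 had 0 counts in all 3 libraries. At day 3 the order in siControl was Csrp1 (251 ± 2.91), Fhl1 (218 ± 3.45), Fhl2 (105 ± 1.11), Csrp2 (78.1 ± 4.25), Pdlim5 (57.8 ± 1.26), Pdlim7 (37.1 ± 0.50), Fhl3 (26.9 ± 0.67), Pdlim3 (19.4 ± 1.53), Ldb3 (14.7 ± 0.71) and Csrp3 (0.26 ± 0.08). Every neighbouring pair in both orders with counts in all libraries was separated by more than its 2 standard deviations added together.

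In control cells the members moved in both directions between day 0 and day 3. Time in culture, doxycycline and the induced factors cannot be told apart in these groups. From day 0 to day 3 in siControl 6 of the 10 members rose and 4 fell (edgeR quasi-likelihood test, adjusted p below 0.05), where 33.9% of all tested genes rose and 39.5% fell. From day 0 to day 1, 5 rose and 4 fell (29.5% and 30.8% of all genes), and from day 1 to day 3, 7 rose and 2 fell (22.8% and 32.3%). The risers to day 3 were Fhl1, Fhl2, Csrp2, Csrp3, Pdlim3 and Ldb3, and Fhl3, Csrp1, Pdlim5 and Pdlim7 fell.

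Ldb3 encodes Cypher, also called ZASP, the PDZ-LIM protein of the striated muscle Z-disc. In siControl it had 0.761, 0.731 and 0.958 CPM at day 0 (33, 33 and 43 counts), 39.5, 38.7 and 38.9 at day 1 and 92.8, 84.3 and 88.7 at day 3. No libraries of different days overlapped. The mean rose 47.8-fold to day 1 and 108-fold to day 3, log2 fold changes of 5.57 ± 0.09 and 6.75 ± 0.09 (standard error), and by 1.18 ± 0.05 on the log2 scale between days 1 and 3.

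Pdlim3, which encodes the actinin-associated LIM protein ALP of skeletal and cardiac muscle, had 0 counts in all 6 day 0 libraries. It stood at 3.37, 3.48 and 3.46 CPM at day 1 in siControl and at 32.7, 28.0 and 31.0 at day 3. Against a floor of 3 counts over the day 0 group day 1 was at least 153-fold and day 3 at least 1359-fold above it, and the log2 fold change between days 1 and 3 was 3.15 ± 0.10. Csrp3, which encodes the muscle LIM protein MLP of cardiac and slow muscle, stayed at the edge of detection. It had 0 counts at day 0, 0, 2 and 2 at day 1 and 6, 13 and 14 at day 3, or 0.169, 0.276 and 0.321 CPM. Day 3 was at least 11.4-fold above the day 0 floor and 6.70 times day 1 by summed counts (95% interval 2.38 to 26.0, exact, counting error only). The edgeR call between days 1 and 3 (2.64 ± 0.92, adjusted p = 0.021) was lost without siControl day 1 replicate 1 (adjusted p = 0.0811) or day 3 replicate 3 (adjusted p = 0.062).

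Csrp2, known from smooth muscle and fibroblasts, had 20.2, 22.9 and 21.6 CPM at day 0 in siControl, 17.9, 18.9 and 17.9 at day 1 and 70.6, 65.2 and 72.6 at day 3. Its rise thus came after day 1, with a log2 fold change of 1.93 ± 0.09 from day 1 to day 3. The small fall to day 1 (-0.24, edgeR adjusted p = 0.0212) was lost when siControl day 0 replicate 2, day 1 replicate 1 or day 1 replicate 3 was left out (adjusted p 0.0927, 0.0596 and 0.0609). Csrp1, the broadly expressed member of smooth muscle and fibroblasts, was lower at day 3 than at day 0 (log2 fold change -0.34). It fell from 544.6, 559.6 and 577.5 CPM to 409.8, 402.3 and 408.5 at day 1 (log2 fold change -0.46) and stood at 448.9, 438.6 and 444.4 at day 3. The day 1 to day 3 step of Csrp1, 0.13 ± 0.05 (edgeR adjusted p = 0.0443), was lost when any 1 of the 6 siControl libraries of those days was left out and with an offset for gene length (0.05, adjusted p = 0.501).

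Within the FHL family Fhl1, the member of skeletal and heart muscle, rose, Fhl2, the main cardiac member, rose less, and Fhl3, known from skeletal muscle and as an actin-binding protein, fell. Fhl1 had 164.4, 168.9 and 179.0 CPM at day 0 in siControl, 495.6, 490.9 and 482.9 at day 1 and 655.3, 634.8 and 645.5 at day 3, a mean rise of 2.87-fold and then 3.78-fold over day 0. Fhl2 had 115.6, 113.0 and 118.2, then 148.8, 147.2 and 147.8, then 177.9, 174.6 and 174.7 CPM, log2 fold changes of 0.36 to day 1 and 0.60 to day 3. Fhl3 went from 87.5, 86.0 and 81.1 CPM to 74.3, 76.6 and 67.8 and then to 46.4, 44.1 and 45.3, a log2 fold change of -0.91 to day 3. The 3 days did not overlap for any of the 3 genes.

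The remaining PDZ-LIM members are Pdlim5, or ENH, which tethers protein kinase C in heart and muscle, and Pdlim7, or Enigma, of bone and muscle. Pdlim5 had 520.1, 538.6 and 551.0 CPM at day 0 in siControl, rose to 656.5, 646.6 and 654.1 at day 1 (log2 fold change 0.28) and fell to 383.8, 397.6 and 399.5 at day 3 (-0.73 from day 1). Pdlim7 moved little, from 142.3, 137.4 and 139.4 CPM to 127.9, 121.3 and 115.0 and to 111.8, 109.4 and 112.0, a log2 fold change of -0.33 to day 3. Both genes have many annotated transcripts (13 and 11), and the counts do not separate the muscle forms from the others.

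As shares of family counts per kilobase, these moves changed the make-up of each family. Fhl1 held 32.6% ± 1.14 (SD, n = 3) of the counts of the 3 FHL genes at day 0 in siControl, 55.7% ± 0.26 at day 1 and 62.3% ± 0.13 at day 3. Fhl3 went from 28.5% ± 1.39 to 7.68% ± 0.08. Csrp2 went from 7.11% ± 0.37 to 23.7% ± 0.84 of the CSRP counts, and Csrp3 held 0.08% ± 0.02 at day 3. Among 7 PDZ-LIM genes, Pdlim1, Pdlim2 and Pdlim4 included, Pdlim5 went from 35.1% ± 0.69 to 17.9% ± 0.68, while Pdlim3 and Ldb3 reached 6.00% ± 0.35 and 4.57% ± 0.14. Pdlim1 was the largest of the 7 at day 3, with 44.5% ± 1.15.

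**Figure D2:**
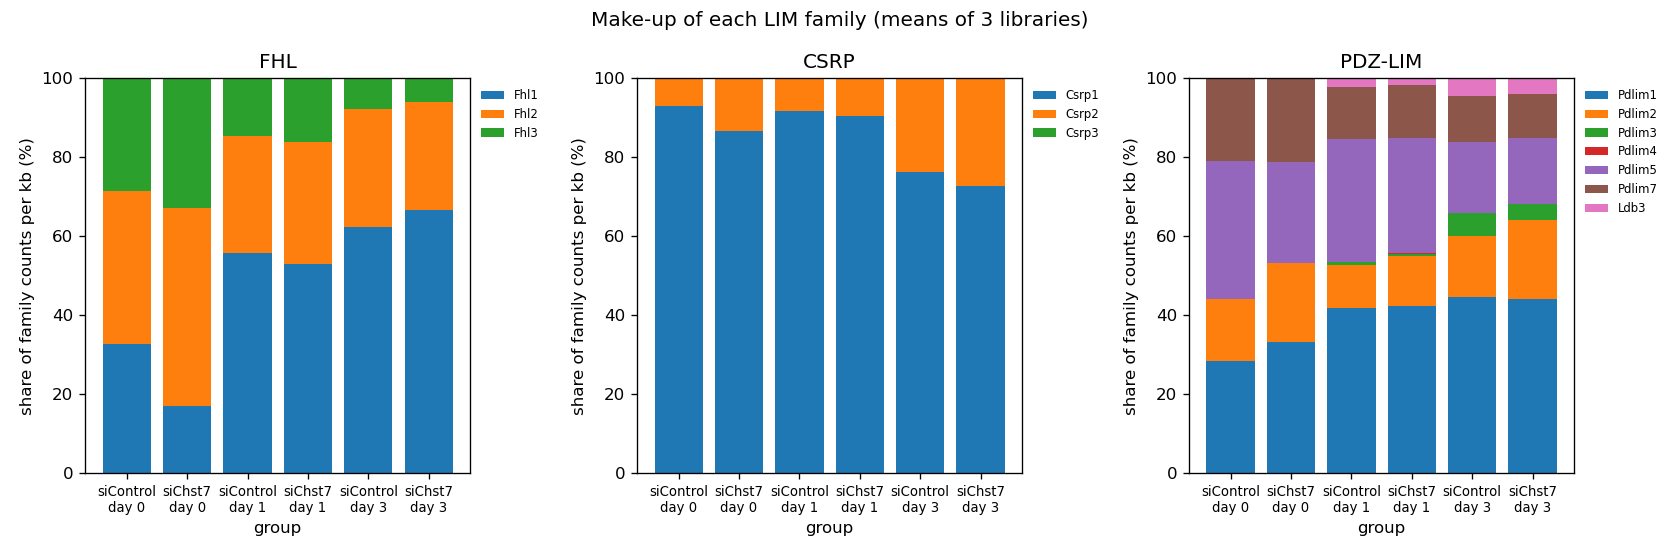
Share of each gene in the counts per kb of its family (%, mean of 3 libraries) in the 6 groups. Fhl1 takes 17.1% of the FHL counts in siChst7 at day 0 against 32.6% in siControl, and 66.6% against 62.3% at day 3.

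Before induction most of the set was lower with siChst7. At day 0, 7 of the 10 members were lower in siChst7 and 0 higher, where 13.5% of all genes were called lower and 13.9% higher (edgeR). The 7 were Fhl1, Fhl2, Fhl3, Csrp1, Pdlim5, Pdlim7 and Ldb3. The median log2 fold change was -0.40 over the 10, or -0.64 over the 8 with counts in both groups, against 0.01 over all genes, and Csrp2 was the 1 of these 8 that was not called. At an unadjusted p below 0.05, with DESeq2 and without siChst7 day 0 replicate 3 the counts were also 7 and 0. At day 1, 2 members were lower and 0 higher (8.72% and 8.86% of all genes), or 3 and 1 at an unadjusted p below 0.05 and 3 and 0 with DESeq2. At day 3, 2 were lower and 2 higher (21.6% and 23.1%), counts that lie near the background.

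**Figure D3:**
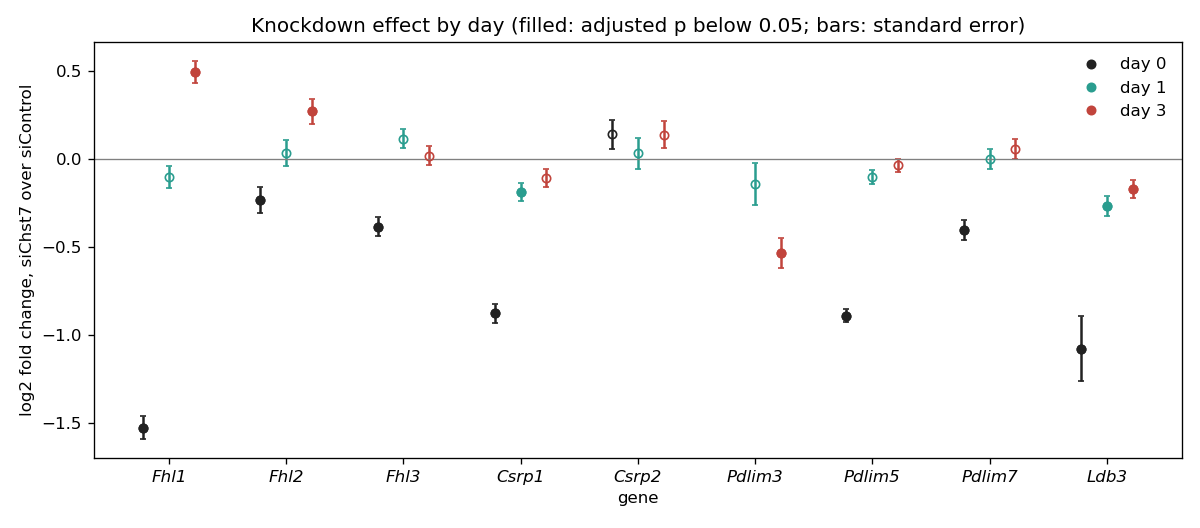
Log2 fold change of siChst7 over siControl for 9 members at days 0 (black), 1 (green) and 3 (red); filled points passed an adjusted p of 0.05 and bars are standard errors. Pdlim3 has no day 0 point because all its day 0 counts are 0, and Csrp3 is not drawn. At day 0 the points of 7 genes lie below 0, down to -1.53 for Fhl1, and at day 3 Fhl1 lies at 0.49.

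Fhl1 had the largest difference at day 0 among the 8 members with counts in both groups. At day 0 it had 164.4, 168.9 and 179.0 CPM in siControl and 58.2, 57.9 and 61.5 in siChst7, so that the groups lay far apart and the mean was 34.7% of control (log2 fold change -1.53 ± 0.07, edgeR adjusted p = 2.17e-13). At day 1 it had 455.4, 437.4 and 475.2 CPM in siChst7 against 482.9 to 495.6 in siControl, which do not overlap. The log2 fold change of -0.10 ± 0.06 did not pass (adjusted p = 0.283), but it did in a fit of the compared groups only (-0.11 ± 0.03, edgeR adjusted p = 0.00226). At day 3 the order turned: siChst7 stood at 907.9, 787.1 and 1025.9 CPM, all above the 634.8 to 655.3 of siControl (0.49 ± 0.06, adjusted p = 2.38e-06). The day 3 value was 0.58 without siChst7 day 3 replicate 2, 0.34 without replicate 3 and 0.46 with an offset for gene length. In a fit of the compared groups only it was 0.49 ± 0.09 (edgeR adjusted p = 0.00398). The 15.3-fold rise of the siChst7 mean from day 0 to day 3 compares with 3.78-fold in siControl. The effect differed between days by its interaction term, by 1.42 ± 0.09 between days 0 and 1, 2.02 ± 0.09 between days 0 and 3 and 0.59 ± 0.09 between days 1 and 3 (adjusted p = 8.47e-05 for the last).

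Fhl2 and Fhl3 were lower at day 0 by less. Fhl2 stood at 115.6, 113.0 and 118.2 CPM in siControl and 96.6, 97.1 and 101.1 in siChst7, which do not overlap (-0.23 ± 0.07, edgeR adjusted p = 0.0192). This call was lost without siControl day 0 replicate 3 or siChst7 day 0 replicate 1 or 2 (adjusted p 0.0662, 0.0643 and 0.0562). At day 3 siChst7 had 215.8, 175.0 and 245.3 CPM against 174.6 to 177.9, so the groups overlap. The called 0.27 ± 0.07 (adjusted p = 0.00411) became 0.10 without siChst7 day 3 replicate 3 (adjusted p = 0.171), 0.39 without replicate 2, and 0.12 with the length offset (adjusted p = 0.0895). The call was also lost in a fit of the compared groups only (0.27 ± 0.10, edgeR adjusted p = 0.0699). Fhl3 had 64.2, 64.1 and 66.5 CPM at day 0 in siChst7 against 81.1 to 87.5 (-0.39 ± 0.05, adjusted p = 6.64e-06), and its groups overlapped at days 1 and 3 (adjusted p = 0.152 and 0.829). The Fhl1 share of FHL counts was 17.1% ± 0.15 in siChst7 at day 0 and 66.6% ± 0.15 at day 3, outside the range of siControl at both days.

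Csrp1 was lower at day 0, with 305.3, 318.5 and 290.6 CPM in siChst7 against 544.6 to 577.5 in siControl (-0.88 ± 0.05, edgeR adjusted p = 2.67e-11). It was still lower at day 1, at 367.2, 339.1 and 364.5 against 402.3 to 409.8 (-0.19 ± 0.05, adjusted p = 0.0131), a call lost without siChst7 day 1 replicate 2 (-0.15, adjusted p = 0.0869). At day 3 siChst7 had 386.7, 454.3 and 391.7 CPM against 438.6 to 448.9, with replicate 2 above every control. The day 3 value of -0.11 ± 0.05 did not pass (adjusted p = 0.0861), but passed without replicate 2 (-0.19, adjusted p = 0.000129), with the scaling of DESeq2 (-0.15, adjusted p = 0.0256) and with the length offset (-0.23, adjusted p = 0.0013). Csrp2 did not pass on any day, with 24.3, 26.3 and 20.6 CPM in siChst7 at day 0 and overlapping groups at every day (adjusted p = 0.252, 0.867 and 0.165). Its day 3 value of 0.14 ± 0.08 rose to 0.22 without siChst7 day 3 replicate 2 (adjusted p = 0.00574) and turned to -0.29 with the length offset (adjusted p = 0.000152), so that its direction at day 3 is not settled. Csrp3 had 22, 8 and 24 counts in siChst7 at day 3 against 6, 13 and 14. The ratio of summed counts was 1.88 (95% interval 1.20 to 2.99, counting error only), while the fit over libraries gave 0.97 ± 0.58 (adjusted p = 0.184), or 1.43 without replicate 2 (adjusted p = 0.0423). The Csrp3 value was 0.79 without siChst7 day 3 replicate 1 (edgeR adjusted p = 0.4) and 0.58 with the length offset (adjusted p = 0.422).

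Pdlim5 was lower at day 0 to nearly the same extent as Csrp1, at 282.1, 283.9 and 301.7 CPM in siChst7 against 520.1 to 551.0 (-0.89 ± 0.04, edgeR adjusted p = 1.95e-13). At day 1 siChst7 stood at 596.3, 597.0 and 627.3, below the control range of 646.6 to 656.5, yet the difference of -0.10 ± 0.04 did not pass (adjusted p = 0.0599), though it did with DESeq2 (adjusted p = 0.0232) and with the length offset (adjusted p = 0.0324). At day 3 the groups overlapped (-0.04, adjusted p = 0.455). Pdlim7 had 105.1, 103.9 and 107.2 CPM at day 0 against 137.4 to 142.3 (-0.41 ± 0.06, adjusted p = 7.48e-06), and its groups overlapped at days 1 and 3 (adjusted p = 0.991 and 0.465).

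The 2 PDZ-LIM genes that were at or near 0 at day 0 were both lower in siChst7 at day 3. Ldb3 was lower on every day: 25, 13 and 15 counts in siChst7 at day 0 against 33, 33 and 43 (-1.08 ± 0.19, edgeR adjusted p = 0.000115), 32.7, 32.2 and 32.5 CPM at day 1 against 38.7 to 39.5 (-0.27 ± 0.06, adjusted p = 0.0016), and 78.9, 77.5 and 79.6 at day 3 against 84.3 to 92.8 (-0.17 ± 0.05, adjusted p = 0.0107). The groups did not overlap on any of the 3 days, but the day 3 call was lost without siControl day 3 replicate 1 (-0.14, adjusted p = 0.0686) and with the length offset (-0.12, adjusted p = 0.0635). Pdlim3 had 3.14, 2.84 and 3.38 CPM in siChst7 at day 1 against 3.37 to 3.48 (-0.14, adjusted p = 0.469). At day 3 it had 21.6, 19.3 and 22.3 CPM against 28.0 to 32.7, which do not overlap (-0.54 ± 0.08, adjusted p = 6.1e-05, and -0.63 to -0.48 with a library left out, the limits being those without siChst7 day 3 replicates 3 and 2). Its effect at day 3 minus that at day 1 was -0.39 ± 0.15 (adjusted p = 0.0552), which passed with the other scalings tried, between -0.44 and -0.41. At day 3 the delivered factors Mef2c, Gata4 and Tbx5 were also lower in siChst7, with log2 fold changes of -0.37, -0.36 and -0.33 (edgeR), and at day 1 they stood at 0.13, 0.09 and 0.10 and were not called (edgeR adjusted p = 0.068, 0.234 and 0.156, with unadjusted p = 0.0135, 0.0834 and 0.0446). At day 0 Gata4 and Tbx5 were both at -0.13 (edgeR adjusted p = 0.074 and 0.0495), so that Tbx5 was called lower, and Mef2c was not called (adjusted p = 0.993). Their part in the values of Ldb3 and Pdlim3 was not tested.

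The effect of siChst7 differed by day for most members. From day 0 to day 1 it moved up for 6 members and down for 0 (6.2% and 5.5% of all genes), the 6 being Fhl1, Fhl3, Csrp1, Pdlim5, Pdlim7 and Ldb3. From day 0 to day 3 it moved up for 7 and down for 0 (20.7% and 18.1%), with Fhl2 added. An unadjusted p below 0.05 and DESeq2 also gave 0 that moved down in both. From day 1 to day 3 it moved up for Fhl1 and down for 0 members (15.3% and 13.1%), though at an unadjusted p below 0.05 and with DESeq2 it moved down for 1, Pdlim3. Day 0 enters both of the first terms, so they are not separate observations. In levels, Csrp1 fell from day 0 to day 3 in siControl to 0.79 of its day 0 mean and stood at 1.35 times it in siChst7, and Pdlim5 at 0.73 and 1.33.

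Related genes were read from 3 lists: other LIM genes (27 of 32 tested), Z-disc partners (18 of 22) and the SRF and MRTF axis (17 of 18). These lists were also chosen with earlier results of these data known. The SRF and MRTF list holds SRF, its coactivators and actin cytoskeleton genes SRF is known to control, and was the most one-sided at day 0. There 13 of 17 were lower and 0 higher in siChst7 (edgeR, and 15 and 2 at an unadjusted p below 0.05). Of all genes 13.5% were lower and 13.9% higher. The median log2 fold change of the list was -0.61. Smooth muscle actin Acta2 went from 1294 ± 69.9 CPM in siControl to 468 ± 30.2 (-1.47 ± 0.06), and Srf itself was at -0.63 ± 0.05. At day 1, 5 of 17 were lower and 0 higher (8.72% and 8.86% of all genes), also at an unadjusted p below 0.05. The myosin light chain kinase gene Mylk was at -1.06 ± 0.08. At day 3, 5 were higher and 6 lower (23.1% and 21.6% of all genes). The smooth muscle calponin-family gene Tagln stood at 0.91 ± 0.06 and Mylk at -0.67 ± 0.08. The effect moved up from day 0 to day 3 for 15 of the 17, Tagln by 2.20 ± 0.08, and down for 2 (20.7% and 18.1% of all genes). Summed smooth muscle markers (6 genes, Acta2 among them) were at 1357 to 1486 CPM in siControl and 525 to 590 in siChst7 at day 0, and at 2834 to 2948 and 2999.85 to 3678 at day 3. Acta2, at 2801 ± 52.5 and 3209 ± 341 CPM at day 3, made up most of each of these sums. Of the 6 markers, 4 were lower and 0 higher in siChst7 at day 0 (13.5% and 13.9% of all genes). At day 1, 3 were lower and 0 higher (8.72% and 8.86%), and at day 3, 3 were higher and 0 lower (23.1% and 21.6%).

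Of the 27 other LIM genes, 14 were lower and 1 higher in siChst7 at day 0 (13.5% and 13.9% of all genes), with a median of -0.17. Lims2, which encodes the integrin-linked adaptor PINCH-2, changed most, from 18.3 ± 0.67 CPM to 6.93 ± 0.35 (-1.40 ± 0.07), and paxillin, Pxn, was the 1 that rose (0.18 ± 0.05). At day 1, 2 were higher and 5 lower (8.86% and 8.72% of all genes), led by Tes (0.35 ± 0.06) and Limch1 (-1.04 ± 0.18). At day 3, 5 were higher and 9 lower (23.1% and 21.6%), led by Pdlim2 (0.46 ± 0.06) and Limch1 (-0.56 ± 0.11). In siControl 15 of the 27 rose and 10 fell from day 0 to day 3, where 33.9% of all tested genes rose and 39.5% fell. Limch1 showed the largest rise, from 0.13 ± 0.10 CPM to 89.0 ± 6.10, and the focal adhesion gene Lpp fell from 643 ± 10.9 to 325 ± 14.4. Limch1 was near 0 at day 0 and passed the filter on low counts through the later groups, so the count of rises is a description.

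Of the 18 Z-disc partners 16 rose and 0 fell from day 0 to day 3 in siControl (edgeR, and 0 fell at an unadjusted p below 0.05), where 33.9% of all tested genes rose and 39.5% fell. Genes near 0 at day 0, Synpo2l, Xirp1 and Xirp2 among them, passed the filter on low counts through the later groups, so this count is a description. Synpo2l, an actin-binding Z-disc gene, went from 0.17 ± 0.03 CPM to 266 ± 10.1. In siChst7, 6 were lower and 1 higher at day 0 (13.5% and 13.9% of all genes). Among the 6 were Nexn at -0.85 ± 0.06, Ankrd1 at -0.80 ± 0.05 and Palld at -0.71 ± 0.05 (chosen after their values were seen). Xirp2 was also among the 6, at 0 counts in siChst7 but only 0.06 ± 0.07 CPM in siControl, so its call rests on few counts. Bag3 was the 1 that rose (0.15 ± 0.05). At day 1, 4 were higher and 2 lower (8.86% and 8.72% of all genes), with Xirp1 at 1.08 ± 0.10 and Synpo2l at -0.24 ± 0.07. At day 3, 5 were higher and 3 lower (23.1% and 21.6% of all genes), counts that lie near the background. Titin, Ttn, stood at 23.4 ± 2.48 CPM in siControl and 40.6 ± 5.06 in siChst7 (0.80 ± 0.10), and Bag3 fell (-0.34 ± 0.05).

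**Figure D4:**
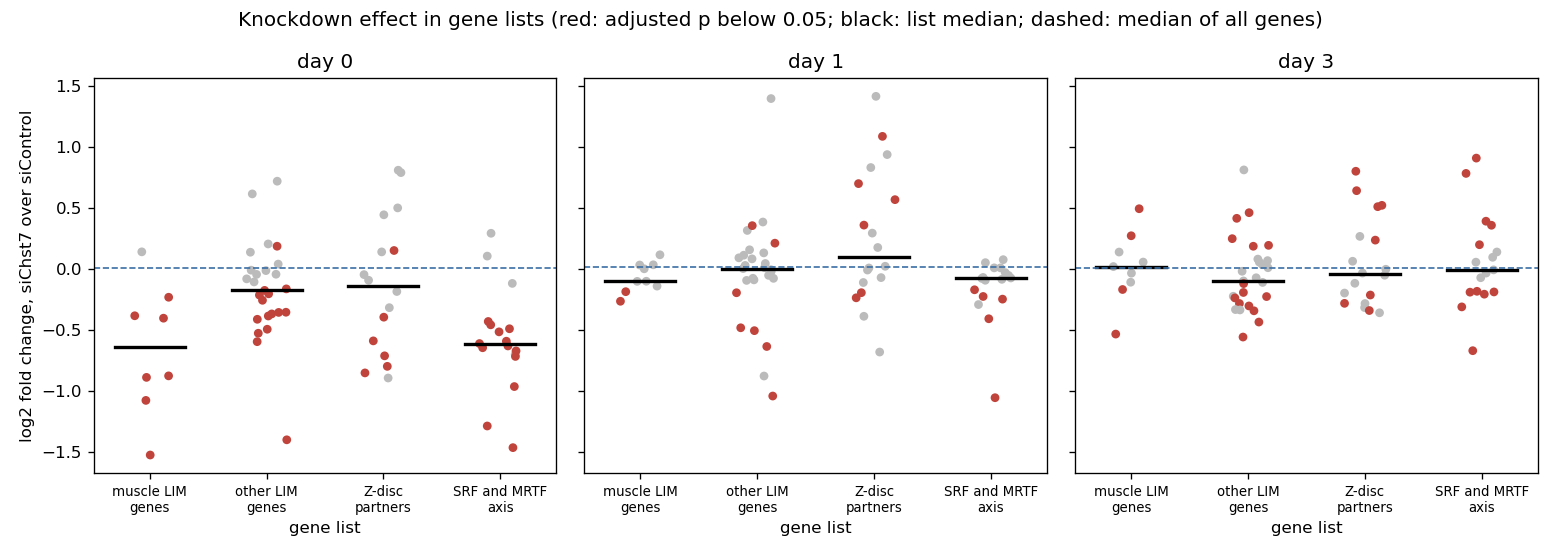
Log2 fold change of siChst7 over siControl at days 0, 1 and 3 for the muscle LIM genes and the 3 lists; each point is a gene with over 3 counts in both groups, red passed an adjusted p of 0.05, black bars are list medians and the dashed line is the median of all genes. Csrp3 is not drawn. At day 0 the medians of the muscle LIM genes (-0.64) and of the SRF and MRTF axis (-0.61) lie lowest.

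The genes whose log2 CPM followed a member most closely over the 18 libraries were named by the highest Pearson correlation among genes with a mean of at least 5 CPM. All values share the same libraries and the large steps between days, and are given as a description. Ldb3 was followed most closely by Map3k7cl (0.998), Pdlim3 by the potassium channel gene Kcnc4 (0.999), which also had 0 counts at day 0 in both siRNA groups, and Csrp2 by Cbr2 (0.989). Fhl1 was closest to Pawr (0.989), Fhl2 to Arfip1 (0.979), Csrp1 to Fam107b (0.957) and Pdlim5 to Tmtc2 (0.961). Csrp3 was closest to Wdr61 (0.963), a value that its low counts make uncertain. Pdlim7 was closest to Actn1 (0.840), which encodes the non-muscle alpha-actinin. Among the members, Ldb3 and Pdlim3 were closest (0.981), then Fhl1 and Ldb3 (0.959), and Csrp2 and Fhl3 ran most opposite (-0.936).

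In the GENCODE M21 annotation of GRCm38 the 10 genes lie on separate loci: Fhl1 on chromosome X (56731787 to 56793346), Fhl2 and Csrp1 on 1 (43123074 to 43196984 and 135720061 to 135752232), Fhl3 on 4 (124700701 to 124708611), Csrp2 on 10 (110919789 to 110939622), Csrp3 on 7 (48830398 to 48848033), Pdlim3 on 8 (45885461 to 45919548), Pdlim5 on 3 (142239590 to 142395696), Pdlim7 on 13 (55495795 to 55513676) and Ldb3 on 14 (34526603 to 34588682). The 1 overlapping gene that was counted, Mir6945 within Pdlim7, had 35 counts over the 18 libraries against 86721 for Pdlim7.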

How the data were processed

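Poly-A libraries of 18 samples were read as the deposited whole-number counts per gene (24514 genes, not normalized), with gene length in bases in 1 further column. The submitters' processing notes name HISAT2, Subread, featureCounts, DESeq2 and the build mm10. Not given in the sources used here are versions, strand setting, annotation and how multi-mapping reads were counted, so reads of overlapping genes or near copies cannot be told apart. Columns were matched through library names in the sample descriptions, with 0 unmatched. The members and lists were chosen with earlier results of these data known.

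Tests used edgeR 4.0.16 (R 4.3.3) with filterByExpr, TMM and the two-sided quasi-likelihood F-test, Benjamini-Hochberg adjusted over 13802 genes and called below 0.05, in 1 fit of 18 libraries and 6 groups with 12 residual degrees of freedom. Values after ± are standard errors for log2 fold changes (the absolute value over the square root of F) and standard deviations for CPM and shares. The p-values measure the spread between these samples, estimated over all 6 groups together. That includes the day 3 siChst7 libraries, which differed most from each other (chi-square over degrees of freedom from 21.2 to 55.3). Folds against a group at 0 use a floor of 3 counts over that group. The script was tested on simulated data. Named genes were the 10 members, Chst7, Mef2c, Gata4, Tbx5 and Rn45s as checks, the called gene of each list with the largest change each way at a mean of at least 5 CPM, and the gene closest to each member by Pearson correlation of log2 CPM (prior count 2; that of Fhl3 is not reported here), with exceptions stated. Alternatives were other scalings and filters, DESeq2 1.42.0, a replicate block, a gene length offset (loess span 0.3), fits of the compared groups only and leaving out each library. Promoter windows came from RefSeq. Figures used matplotlib 3.10.9.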

Additional observations from a re-analysis of the deposited data

Results flagged for a closer look

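For 7 members the effect of siChst7 differed between days by the interaction term of the edgeR fit. Between days 0 and 1 the log2 effect moved by 1.42 for Fhl1, 0.81 for Ldb3, 0.79 for Pdlim5, 0.69 for Csrp1, 0.50 for Fhl3 and 0.40 for Pdlim7. Between days 0 and 3 it moved by 2.02 for Fhl1, 0.91 for Ldb3, 0.85 for Pdlim5, 0.77 for Csrp1, 0.50 for Fhl2, 0.46 for Pdlim7 and 0.40 for Fhl3. Between days 1 and 3 it moved by 0.59 for Fhl1. The terms between days 0 and 1 and between days 0 and 3 share the day 0 libraries. The Ldb3 term between days 0 and 1 was lost without siControl day 0 replicate 3 (0.68, adjusted p = 0.0858) or siChst7 day 0 replicate 2 (0.66, adjusted p = 0.0797), and rests on 53 counts over the siChst7 day 0 group.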

How the results depend on the processing

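The 7 members lower at day 0 stayed 7 under every other scaling, filter and test run, and were 6 or 7 with a library left out. With an offset for gene length the Csrp2 effect at day 3 reversed to -0.29 (-0.29 also with the replicate block beside it), and its effect at day 3 minus day 1 to -0.24 (-0.24 with the block). Members higher at day 3 were 1 with that offset, with or without the block, and with the compared groups only, and ranged from 1 to 4 with a library left out; members lower at day 3 ranged from 1 to 3. Members whose effect moved down from day 1 to day 3 were 1 (Pdlim3) under DESeq2 size factors, upper quartile scaling, library totals alone, no filter, the stricter filter, the DESeq2 Wald test, the replicate block and the compared groups only, 2 with the length offset, with or without the block, and 0 or 1 with a library left out; those whose effect moved up were 1 or 2. Members whose effect moved down from day 0 to day 3 were 1 with the length offset, with or without the block. With the compared groups only, 4 members were lower at day 1, Fhl1 and Pdlim5 being added. In such fits 3924 genes were called at day 1 (2426 in the joint fit), and 2448 genes had an effect that differed between days 0 and 1 (1615). Members lower at day 1 ranged from 1 to 2 with a library left out. The cause of these shifts was not tested.

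No pairing by replicate number was clear: deviations of the 9 same-numbered pairs correlated between -0.02 and 0.06, and 5 of 9 siChst7 libraries correlated best with their own number. With 3 libraries a group these values cannot decide whether same-numbered samples were prepared together. The replicate block ended the call of Csrp1 from day 1 to day 3 in siControl (0.13, adjusted p = 0.0565), and changed no other member's call besides that of Pdlim3. Counts limit Csrp3, with 93 in all 18 libraries, and Ldb3 at day 0, and length-linked shifts are largest at day 3.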
